A study of Mus musculus with 2 samples.

Results

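The insulin-like growth factor (IGF) system of hindlimb skeletal muscle was followed through 10 genes: the ligands Igf1 and Igf2, the receptors Igf1r and Igf2r, and the binding proteins Igfbp2 to Igfbp7. They were taken as every probe set whose platform annotation named one of these symbols, which gave 10 probe sets, 1 for each gene, of 35556 on the array and 19938 genes with a symbol of their own. RNA came from male C57BL/6J mice fed standard chow, either wild type or carrying a Syn4 transgene that overexpresses syntaxin 4, a membrane protein through which vesicles with the glucose transporter GLUT4 fuse with the cell surface. One array was hybridised for each genotype. The sources used here do not give the age of the mice, the promoter of the transgene or the number of animals behind each array. With 1 array per genotype no difference could be tested, and no value below carries an error.

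IGF1 and IGF2 are small secreted hormones that act through the tyrosine kinase IGF1R, which switches on the AKT and MAP kinase pathways and supports the growth of muscle fibres. IGF2R, the cation-independent mannose 6-phosphate receptor, takes IGF2 to lysosomes and carries lysosomal enzymes. The binding proteins hold IGFs in the extracellular space, and proteases that cut them set the hormones free. In muscle, Igf1 is made locally as well as received from the liver under the control of growth hormone, and Igfbp5 is strongly expressed in the fibre lineage.

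None of the 10 genes differed by 1.5-fold between the arrays. Values are log2 intensities after RMA, and each difference is the transgenic minus the wild-type value, so that 0.58 corresponds to 1.5-fold. Igf1r, Igfbp4 and Igfbp3 had the highest differences and Igfbp5 the lowest, and these were the 4 genes that differed by at least 0.322, a smaller step used below. Of the 9974 genes that passed a level filter (a log2 value of at least 6.79 in the brighter array), 4.37% differed by 1.5-fold, 2.66% higher and 1.71% lower in the transgenic array. Differences of at least 0.322 were found in 17.2%, with 10.3% higher and 6.86% lower. The median over the 10 genes was 0.12, against 0.03 over the filtered genes and 0 over all measured genes. Above 0 lay 6 of the 10, beside 53.5% of the filtered genes and 46.9% of all measured genes. Below 0 lay 4, beside 44.2% and 49.6%.

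The promoters of the 4 genes with the largest differences are shown because that of Igf1r differs in its motifs from the rest. Each is the 250 bases before the annotated start in RefSeq (assembly GRCm38.p6), written 5′ to 3′ on the strand of the gene, and the capitals mark 2 motifs. One is the GC box core CCGCCC on either strand. The other is the TATA-like core TATNNA on the gene's own strand, with its first base between 60 and 20 bases before the start. Both the motifs and the place of the latter were chosen after the sequences had been read.
Igf1r, chr7:67952007-67952256, plus strand: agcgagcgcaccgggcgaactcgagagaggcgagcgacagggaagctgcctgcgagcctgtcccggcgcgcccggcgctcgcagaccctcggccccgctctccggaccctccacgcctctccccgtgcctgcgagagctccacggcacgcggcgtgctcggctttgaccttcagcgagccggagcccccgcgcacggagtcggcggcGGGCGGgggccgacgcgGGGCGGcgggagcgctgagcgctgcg
Igfbp3, chr11:7213924-7214173, minus strand: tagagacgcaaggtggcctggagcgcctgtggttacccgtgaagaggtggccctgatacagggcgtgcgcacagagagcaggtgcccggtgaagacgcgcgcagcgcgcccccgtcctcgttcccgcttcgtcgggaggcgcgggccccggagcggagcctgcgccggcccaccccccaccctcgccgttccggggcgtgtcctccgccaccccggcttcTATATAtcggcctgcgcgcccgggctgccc
Igfbp4, chr11:99040994-99041243, plus strand: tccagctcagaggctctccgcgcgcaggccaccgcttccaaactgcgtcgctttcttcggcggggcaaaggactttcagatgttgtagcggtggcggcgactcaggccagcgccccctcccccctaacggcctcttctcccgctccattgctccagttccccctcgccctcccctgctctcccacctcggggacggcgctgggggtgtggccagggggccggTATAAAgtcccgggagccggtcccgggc
Igfbp5, chr1:72874866-72875115, minus strand: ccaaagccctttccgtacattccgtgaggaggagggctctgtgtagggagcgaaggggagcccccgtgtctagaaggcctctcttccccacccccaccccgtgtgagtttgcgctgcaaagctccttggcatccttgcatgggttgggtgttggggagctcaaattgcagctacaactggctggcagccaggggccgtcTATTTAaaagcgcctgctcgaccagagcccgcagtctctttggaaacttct

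The Igf1r window held 2 GC box cores, no TATA-like core and 77.6% G and C, a content above that of 97.6% of all 32851 promoter windows. The content was 73.2% for Igfbp3, 69.2% for Igfbp4 and 58.8% for Igfbp5. These were above the contents of 94.3%, 89.6% and 68.9% of all windows. The windows of Igfbp3, Igfbp4 and Igfbp5 each held 1 TATA-like core (starting at -30, -28 and -51) and no GC box core. Of all windows, 10.2% held the TATA-like core in that place and 32.7% the GC box core. Igfbp6 also held a TATA-like core, at -35. Across the 10 genes 4 had it and 5 had a GC box core in at least 1 of their 14 annotated windows. By window, 4 of the 14 held the TATA-like core and 6 the GC box core. Igfbp3 and Igfbp4, both higher in the transgenic array, and Igfbp5, lower in it, thus had promoters of the same class by these letters. A match is a description of the window and was not tested against the differences.

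**Figure D1:**
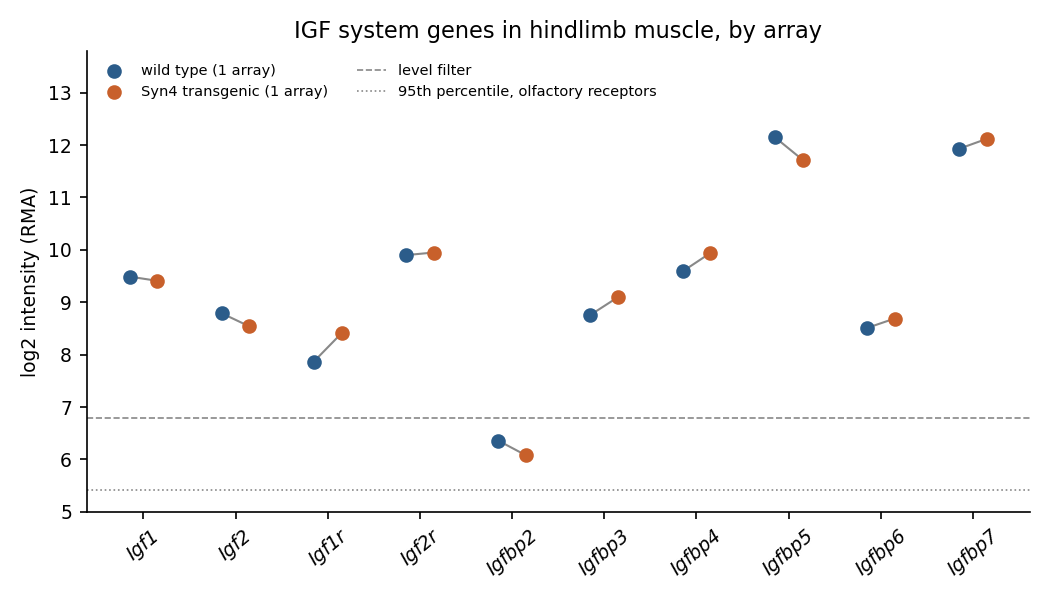
Log2 intensity (RMA, vertical axis) of each IGF system gene in the wild-type array (blue) and the Syn4 transgenic array (orange), 1 array each, joined by a line. Igf1r, Igfbp3 and Igfbp4 slope upward and Igfbp5 downward; Igfbp2 alone lies under the level filter of 6.79 (dashed), above the olfactory receptor percentile of 5.42 (dotted). Levels of different genes come from different probes and cannot be ranked.

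Among the ligands, Igf1 was near equal in the arrays, at 9.49 in wild type and 9.41 in the transgenic muscle. Its difference of -0.08 was smaller than that of most genes, since 73.2% of the filtered genes differed by at least as much. Igf2, the imprinted fetal growth factor, was at 8.79 and 8.54. The transgenic value was the lower by 1.19-fold (-0.25), a size that 28.5% of filtered genes reached. Neither ligand therefore stood out from the bulk of the array.

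Igf2 had a second reading inside its own transcription unit. The microRNA gene Mir483, which lies within Igf2, had its own probe set, with values of 7.20 in wild type and 6.97 with the transgene. The difference of -0.23 is close to the -0.25 of Igf2, but 28.5% of filtered genes differed by at least as much as Igf2. Whether the likeness reflects a shared change was not tested. The probe set cannot tell mature microRNA from the longer transcript around it. The RefSeq mature arms of this microRNA (GRCm38.p6, minus strand, seed of bases 2 to 8 in capitals) show that the arms carry different seeds.
mmu-miR-483-5p, chr7:142654968-142654989: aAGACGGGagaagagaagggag
mmu-miR-483-3p, chr7:142654932-142654952: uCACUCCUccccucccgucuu

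On one side of Igf2, all 5 measured neighbours passed the filter and lay between -0.10 and 0.11. Of these, Mrpl23, a mitochondrial ribosomal protein gene, differed by -0.10, Tnnt3, the fast troponin T, by 0.04 and Tnni2, the fast troponin I, by -0.03. Ins2, the insulin gene next to Igf2, was at 5.41 and 5.15. Both values were under 5.42, the 95th percentile of 1027 olfactory receptor genes, used here as a reference for low signal. On that side none of the genes beyond Mir483 passed the filter, and they lay between -0.57 (Ascl2) and 0.23 (Gm6471).

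Of the receptors, Igf1r had the larger difference. Igf1r was at 7.87 in wild type and 8.41 with the transgene, 1.45-fold higher. The difference of 0.54 lay just under the 1.5-fold rule, and 5.5% of filtered genes differed by as much. Among the 500 genes nearest to it in mean level, 22 did. Igf2r was at 9.90 and 9.95, a difference of 0.05 that 83.7% of the filtered genes matched or exceeded. Airn, the imprinted noncoding RNA that runs antisense across the start of Igf2r, was at 8.43 and 8.65 (0.22).

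**Figure D2:**
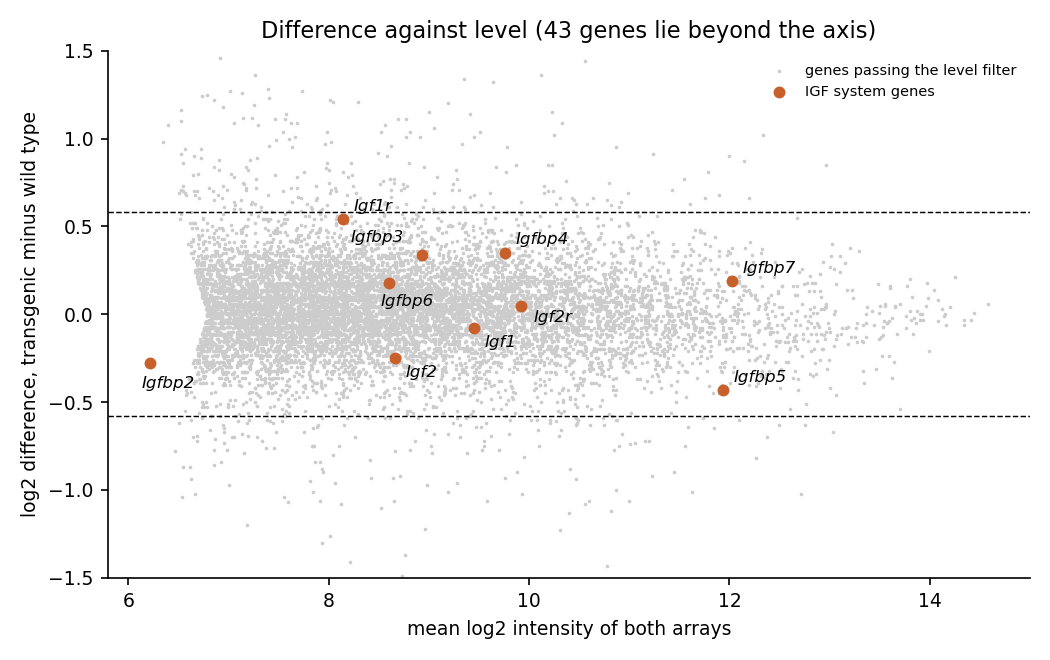
Log2 difference (transgenic minus wild type, vertical axis) against the mean log2 intensity of both arrays for the 9974 filtered genes (grey) and the IGF system genes (orange); dashed lines mark 1.5-fold, and 43 genes lie beyond the axis. All 10 IGF system genes fall between the lines, with Igf1r (0.54) and Igfbp5 (-0.43) nearest to them.

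The measured genes next to Igf1r on chromosome 7 were also mostly higher in the transgenic array, a pattern picked out after the values were seen. Of the 5 measured genes on each side, 8 were above 0, with a median of 0.28, and 5 of the 8 that passed the level filter were higher by at least 0.322. Of these 5, Pgpep1l and Ttc23 passed through the transgenic array alone. With the filter applied to both arrays, a setting also chosen after seeing the data, the count was 3 of 6. Over the whole array, 46.9% of measured genes and 53.5% of filtered genes lay above 0, and 10.3% of filtered genes were higher by at least 0.322. Pgpep1l, a peptidase-like gene on one side, was at 6.68 in wild type, under the filter, and at 7.80 with the transgene (1.12). Synm, the intermediate filament gene synemin on the other side, was at 11.52 and 11.98 (0.46). Mef2a, a muscle transcription factor gene, differed by 0.38, Ttc23 by 0.33 (6.66 and 6.99) and Nr2f2, an orphan nuclear receptor gene, by 0.53. Arrdc4 (-0.09) and Lysmd4 (-0.04) were the exceptions. Around the other 9 IGF system genes, between 0 and 3 of the filtered neighbours were higher by 0.322. The count of 3 was that of Igfbp6. There, Krt18 (5.95 and 7.11) and Krt8 (6.60 and 7.01) passed through the transgenic array alone. With the filter applied to both arrays, the count for Igfbp6 was 1 of 6. The neighbours of Igfbp6 were above 0 more often than those of Igf1r, in 9 of 10. Their median was lower, at 0.16, with a range from Itgb7 at -0.11 to the keratin gene Krt18 at 1.16. Stx4a, the target of the transgene, is on the same chromosome, with 690 measured genes between it and Igf1r.

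**Figure D3:**
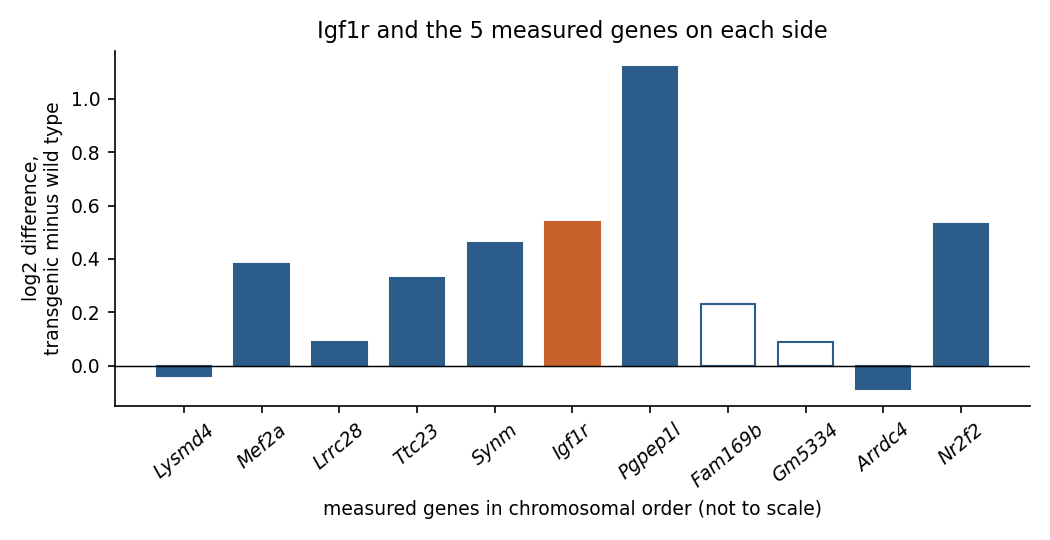
Log2 difference (transgenic minus wild type, bars from 0) of Igf1r (orange) and the 5 measured genes on each side of it in chromosomal order; white bars mark genes under the level filter in both arrays. The largest bar is Pgpep1l (1.12), and only Lysmd4 (-0.04) and Arrdc4 (-0.09) lie below 0.

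The binding proteins lay on both sides of 0, from -0.43 to 0.35. Igfbp5, which binds matrix as well as IGFs, was at 12.15 in wild type and 11.72 with the transgene, 1.35-fold lower. Of the filtered genes 9.4% differed by as much, and of the 500 nearest in level 35 did. Igfbp2, its neighbour on chromosome 1, was at 6.36 and 6.08, a difference of -0.28. It was the member that did not pass the level filter. Rpl37a, the ribosomal protein gene on the far side of Igfbp2, was at 11.61 in both arrays.

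Igfbp4, the substrate of the protease PAPP-A, was at 9.59 and 9.94, 1.27-fold higher in the transgenic array (0.35), a size reached by 15% of filtered genes. Igfbp3, the main IGF carrier of blood, was at 8.76 and 9.10, also 1.27-fold higher (0.34), and 16% of filtered genes differed by as much. Its neighbour Igfbp1, a liver product, was at 5.05 and 5.11, under the olfactory receptor level. Igfbp6, which prefers IGF2 as its ligand, was at 8.51 and 8.69 (0.18). Igfbp7, a low-affinity binder abundant in vessels, was at 11.93 and 12.12 (0.19). For these last genes, 43.0% and 40.4% of filtered genes differed by at least as much, so both lay within the common range.

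Genes that act on the binding proteins included 1 large difference. Of 20 carriers, proteases and protease inhibitors, all measured, 9 passed the level filter, none was higher by 1.5-fold and 1 was lower. The median was 0.08. That gene was Htra4, a serine protease with an IGF-binding-protein-like domain, at 9.72 in wild type and 7.67 in the transgenic array (4.14-fold lower). Its relatives had differences above 0. Htra1, a secreted protease that cuts IGFBP5, was at 9.24 and 9.64 (0.40), and Htra3 at 8.75 and 8.98 (0.23). Plau, the urokinase gene, was the highest of the list (8.32 and 8.74, a difference of 0.42). Vtn, the gene of the matrix and plasma protein vitronectin, was at 9.56 and 9.18 (-0.38). With Htra4, Htra1 and Plau it made 4 of the 9 filtered genes of the list past 0.322, 2 in each direction. Over all filtered genes, 17.2% were past 0.322 and 4.37% past 1.5-fold. The IGFBP4 protease gene Pappa was at 5.74 in both arrays, its relative Pappa2 at 5.26 and 5.34, and the inhibitors Stc1 and Stc2 at 5.17 and 5.25, and at 6.24 and 6.28. These 4 were under the level filter. Igfals, the acid-labile subunit that stabilises the IGFBP3 complex in blood, was at 7.17 and 7.07.

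Downstream of the receptor, 20 of 27 measured signalling genes were above 0, beside 53.5% of the filtered genes and 46.9% of all measured genes. None of the 27 reached 1.5-fold, and their median was 0.16, against 0.03 over the filtered genes. Of the 25 above the filter, 4 were past 0.322, all higher in the transgenic array, beside 10.3% of all filtered genes. These were the transcription factor genes Foxo1 (8.65 and 9.14) and Foxo3 (7.79 and 8.19), which AKT holds out of the nucleus, the adaptor gene Grb2 (7.83 and 8.18) and the PI3-kinase regulatory subunit gene Pik3r1 (9.76 and 10.10). The insulin receptor gene Insr, the closest relative of Igf1r, was at 10.44 and 10.56, a difference of 0.12 beside the 0.54 of Igf1r. Irs1 was at 9.62 and 9.84 and Irs2 at 8.03 and 7.91. Lowest were Irs4 (-0.27), under the filter, and Grb10 (-0.27), an imprinted adaptor that restrains the insulin and IGF1 receptors, at 8.74 and 8.47.

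In the growth hormone branch, the feedback genes Socs2 and Cish had lower values in the transgenic array and the other genes were mixed. Socs2, a STAT5 target that dampens growth hormone signalling, was at 10.14 in wild type and 9.46 in the transgenic array, 1.60-fold lower (-0.68), and its dimmer probe set at 7.55 and 7.03 (-0.52). Cish, a STAT5 target of the same family, was at 8.97 and 8.52 (-0.45). Socs1 and Socs3, counted in the signalling list, were at 7.39 and 7.24 (-0.15), and at 7.19 and 7.21 (0.02). Ghr, the growth hormone receptor gene, was at 11.57 and 11.59, Stat5a at 8.53 and 8.82, Stat5b at 11.16 and 11.34, and the kinase gene Jak2 at 9.67 and 9.41. Bcl6, which represses STAT5 targets, was the highest of the list (0.32). Of 9 measured genes, 7 passed the filter. Of these, 1 was lower by 1.5-fold, beside 1.71% of all filtered genes, and none was higher. The median of the 9 was 0.02. Igf1 itself, another STAT5 target, had the difference of -0.08 given above.

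A list of 15 genes held those of the Igf2 locus, regulators of Igf2 and other imprinted genes. Of these 11 were measured and 4 passed the filter, and the median was 0. H19, Igf2os, Nctc1 and Igf2bp2 were not measured. Mest, an imprinted gene of the fetal growth network, was at 6.92 and 7.64 (1.65-fold higher), whereas Dlk1, another of that network, was at 7.57 and 7.23 (-0.34). The lowest value was that of the imprint regulator Zfp57 (-0.39), under the filter. Igf2bp1 and Igf2bp3, which bind Igf2 mRNA in the embryo, were at 5.47 and 5.37, and at 5.08 and 5.04. Of 12 measured genes of the mannose 6-phosphate route used by Igf2r, none reached 1.5-fold and the median was 0.03. Gga2, an adaptor that sorts the receptor into vesicles, was highest (8.52 and 8.97) and Nagpa, the enzyme that uncovers the sugar tag, lowest (8.01 and 7.77).

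Over the 5 related lists together, 79 of 91 genes were measured and 56 passed the filter. Of these 3 were past 1.5-fold, Mest higher and Htra4 and Socs2 lower. That is 5.36% of them, near the 4.37% of all filtered genes.

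**Figure D4:**
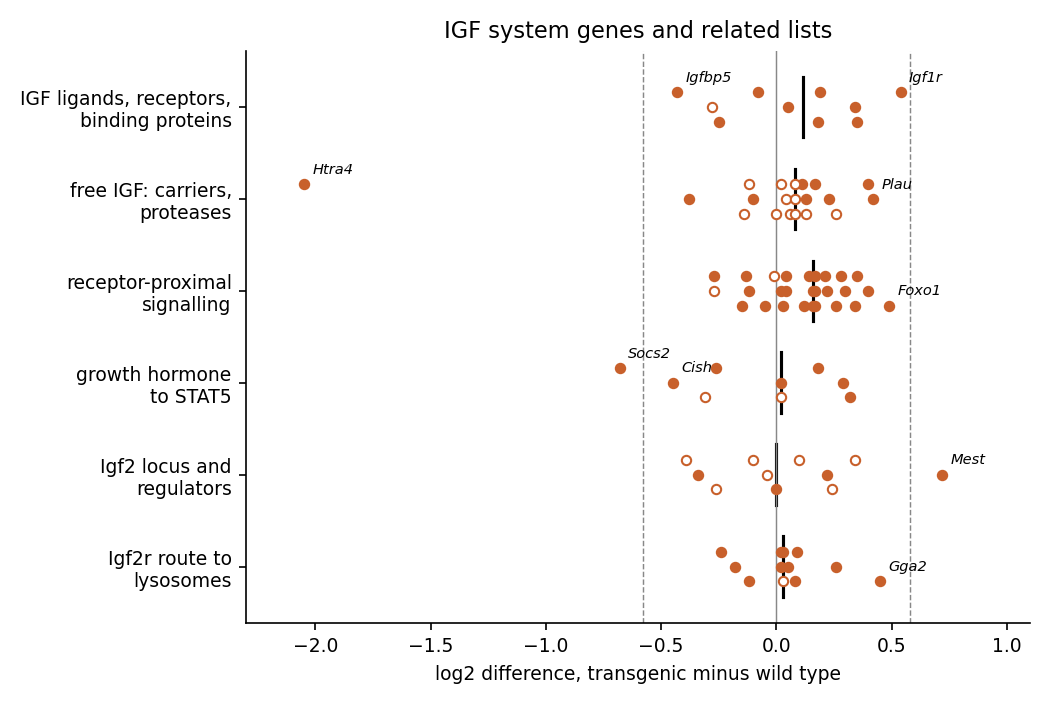
Log2 difference (transgenic minus wild type, horizontal axis) of each measured gene of the IGF system and of the 5 related lists; filled points passed the level filter, open points did not, black bars are list medians and dashed lines 1.5-fold. Only Htra4 (-2.05), Socs2 (-0.68) and Mest (0.72) lie outside the dashed lines.

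As a check of the labels, Stx4a was at 8.84 in wild type and 12.20 with the transgene. The tissue had the markers of muscle: all 10 fibre markers passed the filter in both arrays, and their median difference was 0.07, from Ckm at -0.03 to Myh1 at 0.36. All 10 slow fibre markers were lower in the transgenic array (median -0.75, from Myl3 at -1.02 to Myoz2 at -0.42), with a summed level, as log2, of 15.92 in wild type and 15.18 in the transgenic array. All 10 white adipocyte markers were higher (median 1.01, from Fabp4 at 0.22 to Lep at 3.20; summed 11.99 and 12.81), as were 12 of 13 fibroblast markers (median 0.26, from Thy1 at -0.15 to Lum at 0.74; summed 14.36 and 14.62). Schwann cell markers had a median of 0.46 over 6 genes (Sox10 at 0.09 to Egr2 at 1.08; summed 11.51 and 11.93), satellite and regenerating cell markers 0.22 over 10 (Pax7 at -0.33 to Ncam1 at 1.14; summed 11.31 and 11.76), smooth muscle and pericyte markers 0.19 over 9 (Kcnj8 at -0.34 to Cnn1 at 0.88; summed 13.33 and 13.46) and macrophage markers 0.09 over 9 (Fcer1g at -0.13 to Mrc1 at 0.24; summed 11.11 and 11.20). Endothelial markers had a median of 0 over 11 (Kdr at -0.44 to Vwf at 0.32; summed 13.10 and 13.00) and tendon markers -0.11 over 8 (Chad at -0.57 to Kera at 0.42; summed 12.86 and 12.88). In whole muscle, more cells of a type and more RNA per cell cannot be told apart. The part of these cell types in the values of Igf1r, Igfbp3, Igfbp4 and Igfbp5 was not tested.

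**Figure D5:**
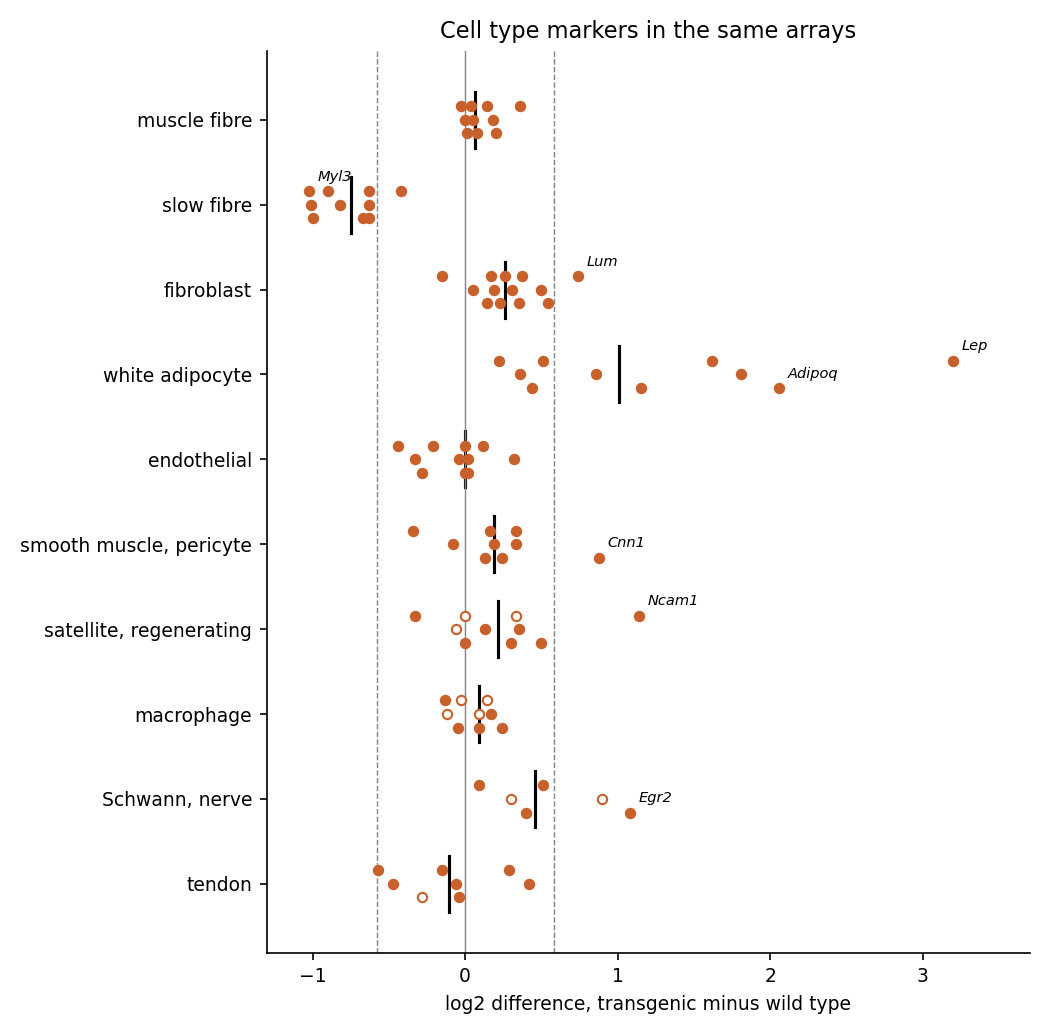
Log2 difference (transgenic minus wild type, horizontal axis) of each measured marker, by cell type; filled points passed the level filter, open points did not, black bars are medians and dashed lines 1.5-fold. Slow fibre markers lie left of 0 and white adipocyte markers right of it, while muscle fibre markers, which include fast isoforms, lie between -0.03 (Ckm) and 0.36 (Myh1).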

How the data were processed

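Hindlimb muscle RNA of 1 wild-type and 1 Syn4 transgenic sample was measured on whole-transcript arrays. The deposited values are log2 intensities, which the authors made with RMA in Partek, per the submitters' processing notes. The sources used here give no versions or settings. Array medians were both 6.06, and sorted values differed by at most 0.14. RMA can compress large ratios and gives no call of detection.

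Gene names came from the platform annotation: 21789 probe sets had 1 symbol, 1621 several and 12146 none. For 999 genes with several probe sets the brightest was used. All 10 members were matched by Entrez identifier to a RefSeq table (GRCm38.p6), used for gene order. They do not name the array's build either, so no gene coordinates are printed apart from those of RefSeq sequences. Genes counted had a value of at least 6.79 (the median of the brighter value) in either array. Differences were computed in Python 3.11.15 with pandas 2.3.3, and loess (span 0.3, 3 iterations) with statsmodels 0.14.6. The counting and scaling steps were run on simulated data with planted differences, which checks the code only. No p-value, SD or interval can be had from 1 array per group, so the number of arrays limits the precision.

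The members and lists were chosen with earlier results of these data known. The text names all members, filtered list genes past 1.5-fold, and the highest and lowest of each list. Of the neighbours only some are named, and the rest are given as counts. Other genes were chosen after their values were seen. Likeness of pattern was not ranked, since 2 arrays give only 1 difference.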

Additional observations from a re-analysis of the deposited data

How the results depend on the processing

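Median centring, loess, repeated quantile normalization, averaged probe sets and genes with a single probe set left 6 of the 10 IGF system genes above 0 and none past 1.5-fold. Array medians were equal (6.06) and each member had 1 probe set. Only loess and repeated quantile normalization could therefore move a member. Over these settings and the deposited values, Igf1r ranged from 0.48 to 0.54, Igfbp5 from -0.46 to -0.43 and Igfbp3 from 0.30 to 0.34. Igfbp4 ranged from 0.32 to 0.35, Igf2r from 0.01 to 0.05 and Igf1 from -0.11 to -0.08. The member median ranged from 0.07 (quantile) to 0.18 (members above the filter in both arrays). With a threshold of 0.322 in place of 0.58 the count of members in the deposited values was 4 in place of 0. Igfbp3 lay under 0.322 after loess (0.31) and repeated quantile normalization (0.30), and Igfbp4 was at 0.32 in both. Of the 56 filtered genes of the related lists, 13 were past 0.322 (8 higher, 5 lower), beside 17.2% of all filtered genes. At 2-fold the count was 1, in place of 3 at 1.5-fold. With single probe set genes the count was 2, since Socs2 has several probe sets and drops out. These counts follow from the rule of size. No paired analysis was possible because each genotype has 1 array. Precision is limited by 1 array per genotype, and the values of Igfbp2 by a level under the filter.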
